A study of Mus musculus with 2 samples.

Results

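Motile cilia are the beating, hair-like organelles of multiciliated cells, and the genes described here encode the moving core of these organelles, the axoneme. Members were chosen by name: symbols beginning with Dnah, Dnaic, Cfap, Drc, Rsph or Spag followed by a number, together with Foxj1, Hydin, Tmem212 and Ccdc153, and holding at least 50 UMIs (unique molecular identifiers, a count of captured RNA molecules) over both libraries. Of 77 genes with such a name, 71 reached this number, among the 18381 genes of 55450 in the tables that did. Rsph6a, with 26 UMIs, was the nearest below the limit, followed by Dnah2os (10), Cfap97d1 (4), Spag17os (1), Spag11a (1) and Spag11b (0), while Cfap73 (64), Spag6 (80) and Dnah8 (101) lay just inside it. The rule used names and total counts only, not the cell type or the diet. A gene with few UMIs can still pass through 1 class of nuclei. Of the 64 UMIs of Cfap73, at least 30 HFD and 17 NFD UMIs lay in the nuclei later named ependymal-like. Cfap73 reached the limit only through these nuclei.

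The study asked how a high-fat diet changes cells of the ventrolateral periaqueductal gray (vlPAG), a midbrain region that adjoins the ventricular system. Wild-type mice of the strain C57/BL6J, which were 8 weeks of age when feeding began, received a high-fat diet (HFD) or a normal food diet (NFD) for 7 weeks, and nuclei of the dissected tissue of 18 mice per diet gave 1 droplet library for each diet. Each diet being 1 library of pooled mice, HFD and NFD values were compared without any test. All intervals given are exact 95% intervals that cover counting error only, and the diet cannot be told apart from any other difference between the libraries, including the dissection.

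In an axoneme, outer and inner dynein arms slide the microtubule doublets against one another, the nexin-dynein regulatory complex holds the doublets together, and radial spokes and the central apparatus set the pattern of the beat. The transcription factor Foxj1, with factors of the Rfx family, switches on these genes in multiciliated cells. In the adult brain the ependyma, a single layer of cells lining the ventricles and the aqueduct, carries tufts of motile cilia, whereas neurons carry a single non-motile primary cilium that lacks dynein arms, spokes and the central apparatus.

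After filtering, 6322 HFD and 7500 NFD nuclei remained, at medians of 7347.5 and 4504.5 UMIs. The libraries also differed in make-up: a granule neuron-like cluster held 815 HFD and 10 NFD nuclei, and a small cluster marked by Kit and Tfap2b held 61 HFD and 8 NFD nuclei. Only 12 barcode sequences occurred in both libraries, 1 of them in an HFD ependymal-like nucleus. Nuclei were clustered with the members left out, and 1 of 23 clusters carried the ependymal markers, none of them a member. In that cluster 16 of 17 such markers were detected in at least 10% of the nuclei, among them Rarres2, Tekt1, Ak7 and Ccdc39. The label of the nuclei rests on these markers. Several of them, such as Tekt1, Ak7 and Ccdc39, are themselves axoneme genes. High members in a cluster so named are thus no independent result. The ependymal-like cluster held 182 HFD nuclei (2.88% of that library, median 3442 UMIs) and 137 NFD nuclei (1.83%, median 2424 UMIs). Of these, 12 HFD and 33 NFD nuclei held neuron markers near the level of neurons, as described below with the diets.

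To show the regulatory DNA of these genes, the RefSeq promoter windows (GRCm38.p6, 250 bases before to 50 bases after the start) were searched on both strands for the letters GTTGCC, one arm of the X-box recognised by Rfx factors, for the whole X-box in a stricter and a looser form, and for the forkhead letters GTAAACA. Windows were found for 58 of the 71 members. Of the 45 genes with a window among the ependymal-enriched members (those beyond 4-fold in CPM over neurons in both libraries), 19, or 42.2%, held GTTGCC, against 14.1% of all 27025 genes with a window. Among the 13 other members with a window 4 did. Both searched forms of the whole X-box fixed the gap between the arms and almost every letter, so that wider spellings were not covered. A window without these forms may thus still hold an X-box. Neither form of the whole X-box occurred in a member's window, the looser being present in 0.152% of all genes, and GTAAACA was found for 1 of the 45 enriched members (2.22%) and 2 of the 13 others (15.4%), against 4.05% of all genes. The windows of 4 enriched members that hold this arm are shown, with GTTGCC or its reverse complement in capitals. The window of Dnah11, without one, is shown as well, since its RNA was also found in other cells. These are examples and no contrast, as the windows of the enriched members Tmem212, Dnah12, Dnah6 and Dnah3 held no GTTGCC. The windows shown lie at chr5:124724835-124725134 (Dnah10, plus strand), chr1:69826720-69827019 (Spag16, plus), chr8:110266727-110267026 (Hydin, plus), chr9:44240427-44240726 (Ccdc153, plus) and chr12:118198994-118199293 (Dnah11, minus).
Dnah10: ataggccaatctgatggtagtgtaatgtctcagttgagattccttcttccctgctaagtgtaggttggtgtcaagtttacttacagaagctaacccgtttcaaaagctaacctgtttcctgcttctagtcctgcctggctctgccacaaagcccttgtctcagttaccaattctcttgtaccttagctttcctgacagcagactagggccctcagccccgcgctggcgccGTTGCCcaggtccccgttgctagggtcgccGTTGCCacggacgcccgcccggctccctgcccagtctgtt
Spag16: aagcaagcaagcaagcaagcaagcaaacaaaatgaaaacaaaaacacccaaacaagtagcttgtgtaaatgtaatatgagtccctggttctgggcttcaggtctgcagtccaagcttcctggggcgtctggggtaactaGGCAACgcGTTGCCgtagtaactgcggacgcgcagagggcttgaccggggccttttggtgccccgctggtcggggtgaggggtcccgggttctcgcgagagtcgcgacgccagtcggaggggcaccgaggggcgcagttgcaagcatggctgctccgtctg
Hydin: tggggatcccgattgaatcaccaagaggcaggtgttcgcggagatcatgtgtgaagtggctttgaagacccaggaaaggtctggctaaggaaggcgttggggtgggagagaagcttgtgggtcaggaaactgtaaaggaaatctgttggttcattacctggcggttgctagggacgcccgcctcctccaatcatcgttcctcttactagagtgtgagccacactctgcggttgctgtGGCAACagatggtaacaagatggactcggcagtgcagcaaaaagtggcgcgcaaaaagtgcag
Ccdc153: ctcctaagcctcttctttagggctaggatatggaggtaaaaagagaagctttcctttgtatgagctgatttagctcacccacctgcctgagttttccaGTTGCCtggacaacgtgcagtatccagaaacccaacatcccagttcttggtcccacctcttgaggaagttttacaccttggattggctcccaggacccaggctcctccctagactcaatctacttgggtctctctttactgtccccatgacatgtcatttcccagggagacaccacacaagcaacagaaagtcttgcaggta
Dnah11: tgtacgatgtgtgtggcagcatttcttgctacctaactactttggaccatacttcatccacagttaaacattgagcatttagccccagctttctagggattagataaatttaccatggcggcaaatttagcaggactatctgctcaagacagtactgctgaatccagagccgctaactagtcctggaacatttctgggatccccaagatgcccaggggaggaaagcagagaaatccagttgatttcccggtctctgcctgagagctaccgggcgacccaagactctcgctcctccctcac
A match is a description of letters and not evidence of binding.

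Most members were far higher in ependymal-like nuclei than in neurons or in glial and vascular nuclei. Their summed level was 33504 CPM (counts per 1e6 UMIs) in HFD and 29571 CPM in NFD ependymal-like nuclei, against 1230 and 1321 CPM in neurons and 1074 and 1125 CPM in glial and vascular nuclei. This last class held oligodendrocyte-lineage, endothelial-like and pericyte or fibroblast-like nuclei, 251 in HFD and 467 in NFD. Astrocyte-like nuclei were kept apart from it, and a cluster with microglia markers stayed unnamed and outside it. The 182 HFD ependymal-like nuclei held 33.1% of all member UMIs of their library and the 137 NFD nuclei 22.2%, while neurons, of which there were 5301 and 5960, held 62.9% and 71.9%. The classes come from clustering the same nuclei, so these ratios describe the cluster and are no test. In both libraries, 56 of the 71 members had a ratio of ependymal-like to neuronal CPM whose interval lay wholly beyond 4-fold. Of the genes tested, 5.94% had such a ratio. The 56 include Cfap73, which passed the UMI limit only through ependymal-like nuclei. Counting only members with 200 or more UMIs left 54. No member was beyond 4-fold in the other direction (0.0326% of genes). Counted per library, it was 58 members in HFD (background 9.4%) and 56 in NFD (background 6.26%). Over the members the median log2 ratio was 5.61 in HFD and 5.09 in NFD, beside medians over all genes of -0.07 and -0.17. Against glial and vascular nuclei 56 members were beyond 4-fold in both libraries as well (background 2.99%).

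**Figure D1:**
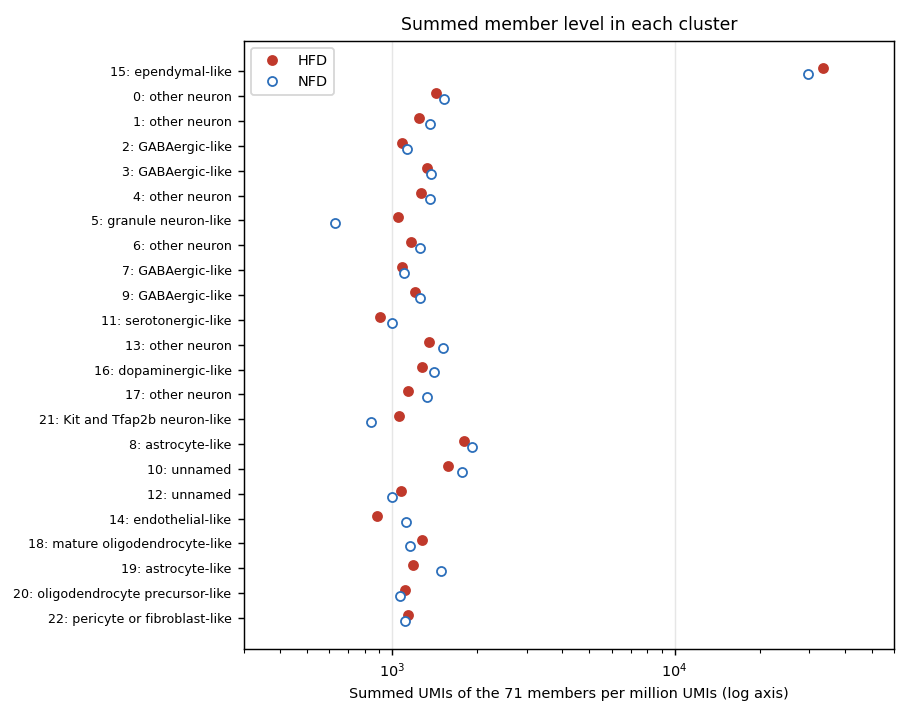
Summed UMIs of the 71 members as CPM (log axis) in each of the 23 clusters, for HFD (filled) and NFD (open). The ependymal-like cluster, at 33504 and 29571 CPM, stands apart from every other cluster, and the granule neuron-like and the Kit and Tfap2b clusters have 10 and 8 NFD nuclei.

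Foxj1, the regulator at the head of the programme, had 361 UMIs in HFD ependymal-like nuclei (370 CPM) and 100 in NFD ones (193 CPM), and was at 0.871 and 0.531 CPM in neurons. Thinned to 1000 UMIs per nucleus, Foxj1 was detected in 27.7% of HFD and 14.6% of NFD ependymal-like nuclei, against 0.905% of HFD glial and vascular nuclei, which should lack it, and 0 of 330 NFD ones, where 0 allows up to 1.11%. Before thinning it was detected in 61.5% of HFD and 28.5% of NFD ependymal-like nuclei, and in 1.99% and 0.214% of glial and vascular nuclei, whose median depths were 2357 and 1655 UMIs. Detection of Foxj1 in ependymal-like nuclei was thus above this background in both libraries. Tmem212, thinned in the same way, was detected in 76.8% and 61.8% of ependymal-like nuclei and in 0.452% and 0.606% of glial and vascular nuclei. On GRCm38 (GENCODE M21 annotation) Foxj1 spans chr11:116330704-116335399 and Tmem212 chr3:27866066-27896368, both on the minus strand.

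Among the outer arm heavy chains, the motors that drive the beat, Dnah11 had 1203 UMIs (1233 CPM) in HFD and 456 (880 CPM) in NFD ependymal-like nuclei. Dnah9 had 1117 UMIs (1145 CPM) in HFD and 531 (1025 CPM) in NFD ependymal-like nuclei, and Dnah5 had 704 and 305 UMIs (722 and 589 CPM). These 3 chains were beyond 4-fold over neurons, while the other 2 outer arm heavy chains, Dnah8 and Dnah17, both known from sperm flagella, were not detectable above the neuronal level at this depth. Dnah8 had 0 UMIs in the ependymal-like nuclei of either library, and Dnah17 had 1 in HFD and 0 in NFD. The outer arm intermediate chain Dnaic1 stood at 343 CPM in HFD and 282 CPM in NFD ependymal-like nuclei, 5.78 and 8.39 CPM in neurons, and Dnaic2 at 90.2 and 69.5 CPM in ependymal-like nuclei.

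All 10 inner arm heavy chains were beyond 4-fold. Dnah12 had the most UMIs of them, not divided by length, with 1971 UMIs (2021 CPM) in HFD and 1096 (2115 CPM) in NFD ependymal-like nuclei, and 2.49 and 3.96 CPM in neurons. Dnah6 had the highest ratio of these chains, with log2 ratios of 9.92 in both libraries, at 1111 CPM in HFD and 1162 CPM in NFD ependymal-like nuclei. Dnah7b had the smallest share of its UMIs in ependymal-like nuclei of these chains, 15.6%, and stood at 714 and 579 CPM in them and 47.2 and 64.3 CPM in neurons. Since Dnah7a, Dnah7b and Dnah7c are close copies, the split of reads between them is uncertain.

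For the nexin-dynein regulatory complex only the members named for it, Drc1, Drc3 and Drc7, were counted, all 3 beyond 4-fold. Drc3 had the most UMIs of them, at 293 CPM in HFD and 208 CPM in NFD ependymal-like nuclei and 11.8 and 13.7 CPM in neurons. Of 9 radial spoke members 6 were beyond 4-fold, with Cfap61, a protein of the spoke stalk, at 866 CPM in HFD and 963 CPM in NFD ependymal-like nuclei. Cfap206, which in Tetrahymena sits at the base of a radial spoke, was at 352 and 185 CPM. The spoke genes Rsph9, Rsph3a and Rsph3b were not beyond 4-fold in both libraries. Rsph9 reached 99.5 and 79.1 CPM in ependymal-like nuclei against 12.7 and 14.2 CPM in neurons, and the reads of the copies Rsph3a and Rsph3b cannot be separated with certainty.

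Central apparatus genes made up 14 members, of which 13 were beyond 4-fold. Spag16 had the most UMIs of them, with 2569 UMIs (2634 CPM) in HFD and 1271 (2453 CPM) in NFD ependymal-like nuclei. Cfap54 had 1267 and 687 UMIs (1299 and 1326 CPM). Hydin, whose loss causes hydrocephalus in mice, had 850 and 434 UMIs (871 and 838 CPM) there, and 4.69 and 5.98 CPM in neurons. The exception was Spag6, with 1 UMI in HFD and 3 in NFD ependymal-like nuclei. Its near copy Spag6l had 603 and 232, so that the counting of this pair is uncertain.

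Among the 15 genes of the doublet wall, its tethers and rulers, 14 were beyond 4-fold, with Cfap73 among them. Cfap44, part of a tether of the inner arms, was at 1108 CPM in HFD and 1029 CPM in NFD ependymal-like nuclei. Ccdc153, a coiled-coil protein of the axoneme counted with this group, had 574 and 248 UMIs (589 and 479 CPM). Its log2 ratios were among the highest of all members, 10.34 in HFD and 9.82 in NFD. Of 9 members whose place in the axoneme is other or unclear, 3 were beyond 4-fold. Tmem212, a membrane protein and one of these 3, had 1441 and 700 UMIs (1477 and 1351 CPM) and log2 ratios of 10.60 and 10.24, with 94.5% of its UMIs in ependymal-like nuclei. The highest counts of any member were those of Cfap299, another of the 3, with 3519 UMIs (3608 CPM) in HFD and 1615 (3117 CPM) in NFD ependymal-like nuclei. Its span overlaps the protein-coding gene Gm11111 on the same strand, as Rsph10b overlaps Pms2 and Cfap43 overlaps Itprip, so that their counts are less certain.

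**Figure D2:**
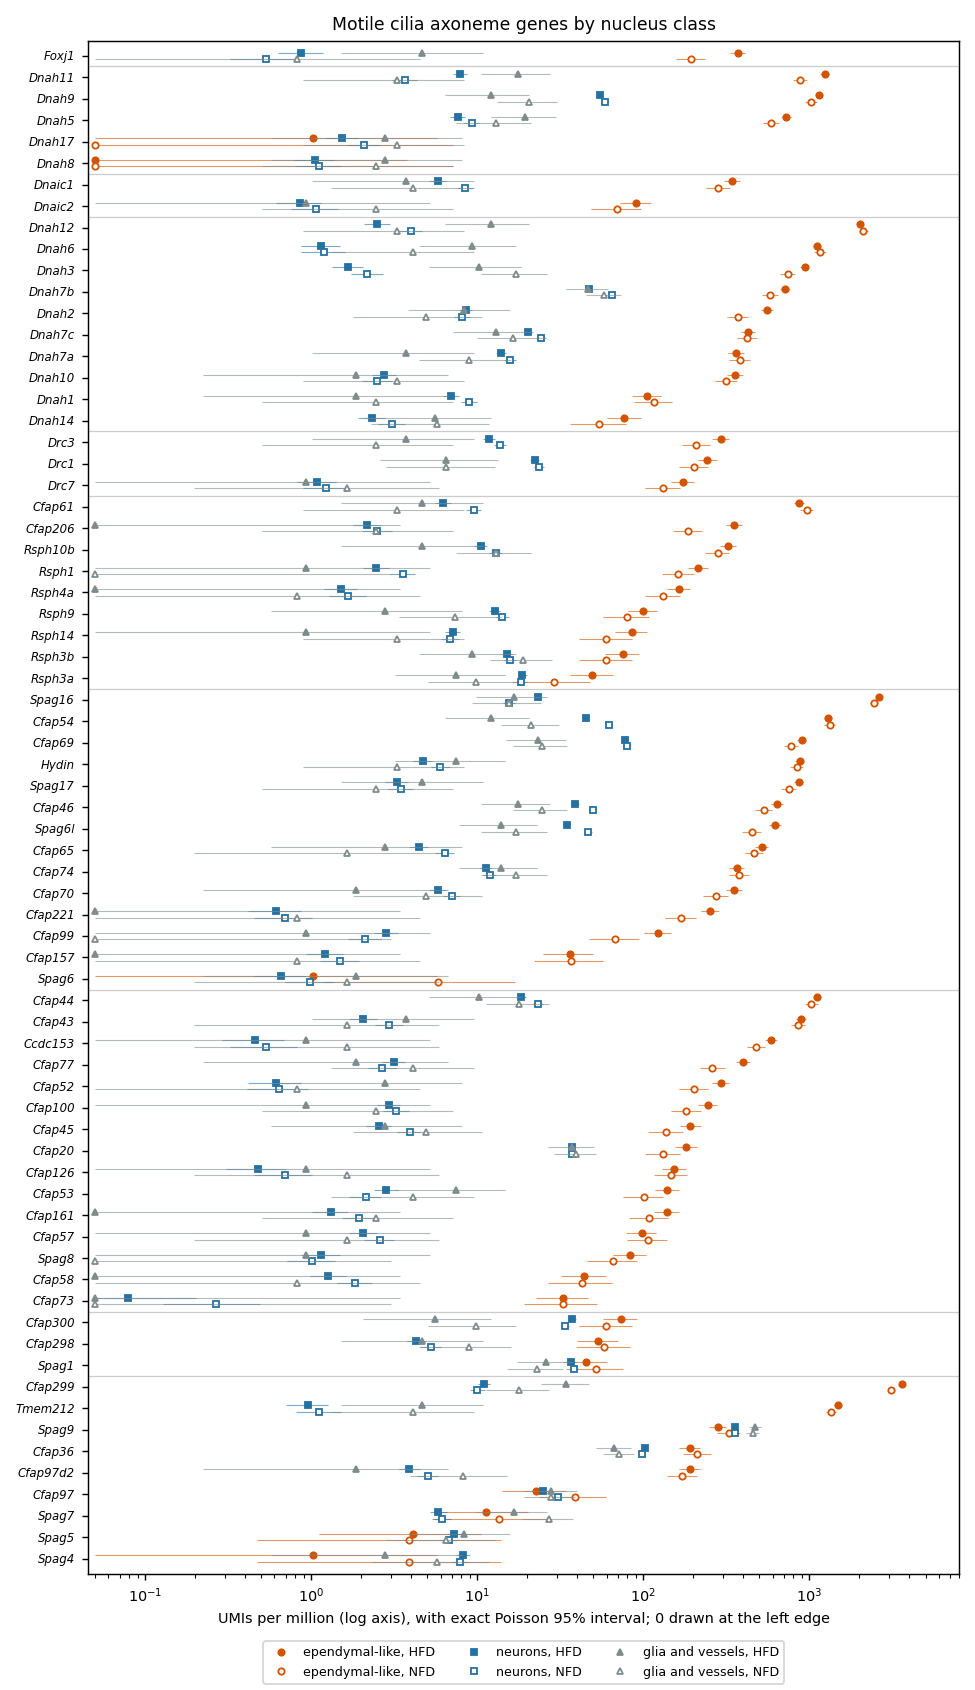
CPM (log axis) of each of the 71 members in ependymal-like nuclei (circles), neurons (squares) and glial and vascular nuclei (triangles), filled for HFD and open for NFD, with exact Poisson 95% intervals; horizontal lines separate the roles. The ependymal-like values of all 56 enriched members lie to the right of their other values, and those of some other members, among them Spag9, Spag5, Spag4 and Dnah8, do not.

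Levels of different genes are not directly comparable, since long nuclear transcripts may offer more places for capture. Division by gene span is only a rough scale, since counts from a 3' kit need not rise in proportion to the span. It favours short genes, and Ccdc153 spans 6.63 kilobases against 898 for Spag16. Per kilobase of gene span, Ccdc153 was the highest of these named members, at 88.8 CPM per kilobase in HFD and 72.2 in NFD ependymal-like nuclei. Foxj1 stood at 78.8 and 41.1 CPM per kilobase and Tmem212 at 48.8 and 44.6. The members with the highest counts were lower on this scale, Cfap299 at 7.63 and 6.59 CPM per kilobase and Spag16 at 2.93 and 2.73.

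The 15 members that were not beyond 4-fold in both libraries included genes whose products also work outside motile cilia. Spag9, a scaffold of JNK signalling and vesicle transport, was expressed in every class, at 280 and 326 CPM in HFD and NFD ependymal-like nuclei, 358 and 357 CPM in neurons and 471 and 455 CPM in glial and vascular nuclei. Cfap36, named for cilia but present in many tissues, was at 191 and 210 CPM in ependymal-like nuclei and 103 and 98.3 CPM in neurons. Cfap97 was at 22.6 and 38.6 CPM in ependymal-like nuclei and 24.7 and 30.5 CPM in neurons. The dynein arm assembly factors Spag1 and Cfap300 were close to neuronal levels too: Spag1 had 45.1 and 52.1 CPM in ependymal-like nuclei and 36.8 and 38.3 CPM in neurons. The third assembly factor, Cfap298, was beyond 4-fold, at 53.3 and 57.9 CPM in ependymal-like nuclei. Cfap300 had 72.8 and 59.8 CPM in ependymal-like nuclei and 37.3 and 33.6 CPM in neurons. Cfap20, an inner junction protein in Chlamydomonas, was at 181 and 131 CPM in ependymal-like nuclei against 37.2 and 37.2 CPM in neurons, log2 ratios of 2.29 and 1.82. Spag7, Spag4 and Spag5 were low in ependymal-like nuclei, at 11.3 and 13.5 CPM, 1.03 and 3.86 CPM, and 4.10 and 3.86 CPM. Spag5, a protein of the mitotic spindle, and Spag4, of the nuclear envelope, carry the name of sperm-associated antigens for where they were found.

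Other axoneme genes, listed by function and not by name, were also mostly higher in ependymal-like nuclei. The lists were drawn up with earlier results of these data known. Several hold genes that also served as ependymal markers and so helped to name the class, Dynlrb2, Ccdc39, Enkur, Tekt1, Tekt4, Ak7, Armc3 and Deup1, which are left out of the counts that follow. Of the listed dynein chains outside the naming rule 5 of 6 were beyond 4-fold in both libraries, of the docking and ruler genes 8 of 8, of the assembly factors 5 of 6, of tektins and inner microtubule proteins 5 of 8, and of further spoke and central pair genes 11 of 12. The transport machinery that all cilia share did not: 1 of 24 intraflagellar transport genes and 0 of 20 genes of the neuronal primary cilium and BBSome, a transport complex, were beyond 4-fold, although 19 and 12 of them had intervals above equality in both libraries, as had 18.0% of all genes. The multiciliation programme, which includes factors that also work in other cells, had 6 of 13. By the share of its UMIs that fell in ependymal-like nuclei, the genes most like the members were Fam216b (97.0% of 493 UMIs), 2010001K21Rik (96.7% of 760), Ccdc180 (96.2% of 634), Unc5cl (95.7% of 1336) and Tctex1d4 (94.7% of 207). Fam216b was itself one of the ependymal markers. Among the 56 enriched members this share ran from 14.2% to 94.5%, with 4 above 90%, and among the other 15 it reached at most 10.1%.

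The members were found together in single nuclei. At full depth, an ependymal-like nucleus held UMIs of a median of 39 of the 71 members in HFD and 29 in NFD, against 6 and 5 in neurons. Thinned to 1000 UMIs, which left 177 HFD and 123 NFD nuclei, the medians were 22 and 21 members, against 1 in neurons of both libraries. Of the 56 enriched members, which were chosen by these same nuclei, the median at full depth was 36 in HFD and 27 in NFD. The enriched members took at least 1% of the UMIs in 174 of 182 HFD and 108 of 137 NFD ependymal-like nuclei. Outside the cluster 4 of 6140 HFD nuclei (0.0651%) and 8 of 7363 NFD nuclei (0.109%) reached this share, in an astrocyte-like, an endothelial-like and an unnamed cluster.

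In neurons 6 members stood above the level of glial and vascular nuclei in both libraries. This share was near that of all genes, so it is not read as a trait of the members as a set. Counted per library, it was 9.86% of members in HFD (background 7.51%) and 9.86% in NFD (background 6.45%). Neuronal CPM exceeded glial and vascular CPM beyond 1.5-fold in both libraries for 6 members, Cfap69, Dnah9, Cfap54, Spag6l, Cfap300 and Drc1 (8.45%, background 4.89%), and was lower beyond 1.5-fold for Dnah3 and Spag7 (2.82%, background 14.0%). Cfap69, a protein also of sperm flagella and olfactory cilia, was at 77.9 CPM in HFD and 79.5 CPM in NFD neurons, against 23.1 and 24.4 CPM in glial and vascular nuclei. Dnah9 was at 54.5 and 59.0 CPM in neurons, against 12.03 and 20.4 CPM, and Cfap54 at 45.0 and 62.3 CPM, against 12.03 and 21.2 CPM. These levels remained far below those of the ependymal-like nuclei.

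The neuronal level of these genes varied between neuron clusters. Over 12 neuronal clusters, without the granule neuron-like and the Kit and Tfap2b clusters, Cfap54 was highest in cluster 0, led by Bnc2 and Tfap2d, with 850 UMIs in HFD and 800 in NFD (98.4 and 116 CPM). It was lowest in the GABAergic-like cluster 9, with 41 and 44 UMIs (14.5 and 23.4 CPM). Dnah9 stood at 93.5 and 133 CPM in cluster 17, led by Spx and Prdm6, and at 99.0 and 85.7 CPM in cluster 0, and was lowest in the GABAergic-like cluster 2, at 21.6 and 24.1 CPM. Cfap69 ranged between 97.6 and 105 CPM in cluster 13, close to the 96.8 and 92.8 CPM of cluster 0, and 47.5 and 51.7 CPM in the serotonergic-like cluster 11.

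**Figure D3:**
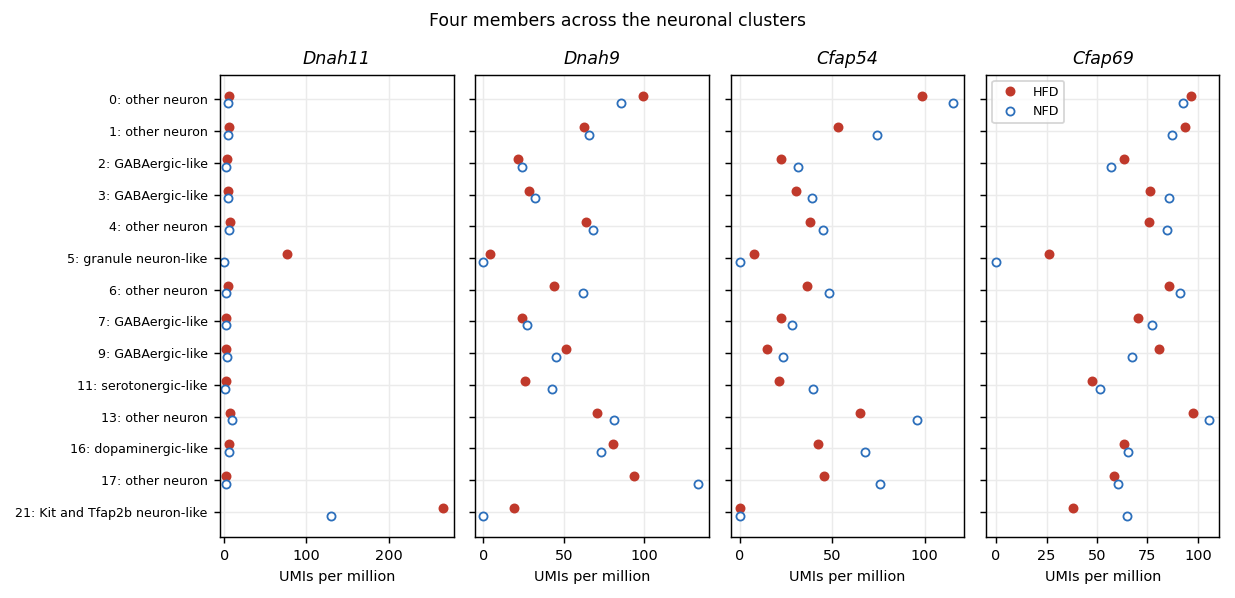
CPM of Dnah11, Dnah9, Cfap54 and Cfap69 in the neuronal clusters, filled for HFD and open for NFD. Dnah11 stands out in the Kit and Tfap2b cluster (266 and 130 CPM) and in the granule neuron-like cluster of HFD (76.4 CPM), while the other genes are spread over many clusters.

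Dnah11 was also found outside the ependymal-like cluster. In the Kit and Tfap2b neuron-like cluster it had 42 UMIs in 25 of 61 HFD nuclei (266 CPM, interval 191 to 359) and 2 UMIs in 2 of 8 NFD nuclei (130 CPM, interval 15.7 to 470). Relative to the other neurons its log2 ratio was 5.23 (4.73 to 5.69) in HFD and 5.17 (2.11 to 7.05) in NFD, and it was the only member beyond 1.5-fold in both libraries (1.41%, background 0.571%). The granule neuron-like cluster held 122 UMIs of Dnah11 in 102 of 815 HFD nuclei (76.4 CPM) and 0 in the 10 NFD nuclei, where 0 allows up to 332 CPM. In the other-neuron and GABAergic-like classes it was at 5.75 and 3.45 CPM in HFD and 4.16 and 2.93 CPM in NFD. In the HFD nuclei of the Kit and Tfap2b cluster 45 of the 71 members (63.4%) had no UMI, as had 41.7% of all genes. Foxj1, Hydin, Tmem212, Dnah12 and Dnah5 were among them, but 0 there allows up to 23.3 CPM, so that a level like that of other neurons would not have been detectable. Astrocyte-like nuclei held 40 UMIs of Dnah11 in 25 of 297 HFD nuclei (27.5 CPM) and 32 in 20 of 387 NFD nuclei (32.0 CPM). Mature oligodendrocyte-like nuclei held 17 UMIs of Dnah11 in 6 of 73 HFD nuclei, up to 9 of them in 1 nucleus, and 0 in 122 NFD nuclei. The 6 granule neuron markers summed to 639 CPM in those HFD nuclei and 87.4 CPM in the NFD ones, and their part in this was not tested. Dnah11 lies at chr12:117877982-118199043 on the minus strand.

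Astrocyte-like nuclei held some members above the glial and vascular level, 6 beyond 1.5-fold in both libraries (8.45%, background 2.97%). Dnah7b was at 136 CPM in HFD and 208 CPM in NFD astrocyte-like nuclei, against 46.3 and 57.8 CPM in glial and vascular nuclei, with the limit on its copies given above. Spag16, Cfap44, Cfap74, Spag5 and Cfap97d2 were the other 5. Spag5 was higher in astrocyte-like nuclei, at 39.2 and 29.0 CPM, than in ependymal-like nuclei, at 4.10 and 3.86 CPM.

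Between the diets, the members of the ependymal-like nuclei leaned towards HFD when the whole cluster was summed, but this did not hold in the nuclei with few neuronal transcripts. Over the whole cluster the summed member CPM gave a log2 ratio of HFD to NFD of 0.18 (0.15 to 0.21). Of 65 members with at least 20 UMIs, 50 lay above 0 and 15 below, with a median of 0.28 beside 0.09 over all genes. Intervals lay above 0 for 27 members (41.5%, background 11.6%) and below 0 for none (background 8.84%). High counts narrow the intervals, and these backgrounds were not matched for counts, here or in the diet comparisons below. Beyond 1.5-fold were 2, Foxj1 and Cfap206 (3.08%, background 1.04%), and none was lower (background 2.96%).

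The NFD nuclei of the cluster held more neuronal RNA. The 7 neuron markers summed to 2199 CPM in HFD and 4725 CPM in NFD ependymal-like nuclei, with Snap25, Syt1 and Celf4 among them. In 12 of 182 HFD and 33 of 137 NFD nuclei these markers took at least 0.5% of the UMIs, a level chosen after the data were seen, with 1 nucleus of each library within 0.1 of it. In these nuclei the members summed to only 9236 CPM in HFD and 6870 CPM in NFD, against 37542 and 41352 CPM in the remaining 170 HFD and 104 NFD nuclei. Their neuron markers summed to 12420 CPM in HFD and 12395 CPM in NFD, near the 13416 and 12712 CPM of neurons. Their ependymal markers summed to 1121 and 678 CPM, against 5479 and 5846 CPM in the remaining nuclei. The label ependymal-like is thus weak for these nuclei, which stayed in all whole-cluster values, shares and detection rates. Of markers of other cell types in the cluster, those of granule neurons summed to 44.1 CPM in HFD and 3.86 CPM in NFD, choroid plexus markers summing to 122 and 84.9 CPM, tanycyte markers to 87.1 and 110 CPM and astrocyte markers to 1270 and 934 CPM. Within the nuclei below 0.5% the log2 ratio of summed member CPM was -0.14 (-0.17 to -0.11), the median over members was -0.06 beside 0.05 over all genes, and 26 members lay above 0 and 39 below. Intervals then lay above 0 for 3 members, Foxj1, Cfap206 and Dnah2 (background 7.01%) and below 0 for 14 (background 5.67%), and none was beyond 1.5-fold in either direction (backgrounds 0.484% and 0.811%). Without the nuclei of the highest doublet scores the summed ratio was -0.14 as well. The part of the neuronal transcripts in these ratios was not tested further.

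**Figure D4:**
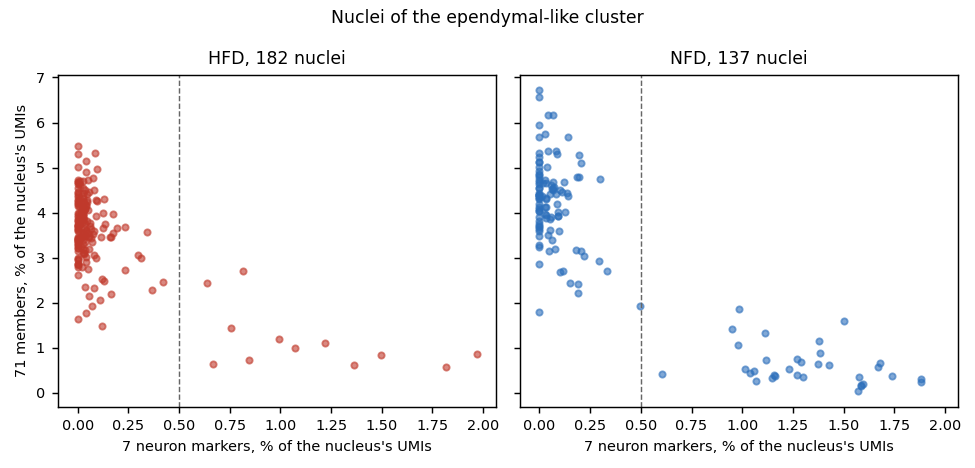
Share of UMIs taken by the 71 members (vertical) against the share taken by the 7 neuron markers (horizontal) in each nucleus of the ependymal-like cluster, HFD left and NFD right; the dashed line marks 0.5%. To the right of the line lie 12 HFD and 33 NFD nuclei, with low shares of members.

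Foxj1 and Cfap206, the members beyond 1.5-fold in the whole cluster, stayed above 0 in the nuclei with few neuronal transcripts. There Foxj1 had 352 UMIs in HFD and 94 in NFD (421 and 276 CPM), a log2 ratio of 0.61 (0.28 to 0.96). Cfap206 had 328 and 89 UMIs (392.2 and 260.9 CPM), a log2 ratio of 0.59 (0.25 to 0.94). Over 13 alternative ways of processing the ratio of Foxj1 ran from 0.59 to 1.25, and that of Cfap206 from 0.26 to 1.36. Both had intervals above 0 in 11 of 11 alternatives that gave one, and beyond 1.5-fold in 3. The alternatives reuse the same nuclei, and both genes were picked for their ratios in them, so these counts are no independent support. The setting of members with 200 or more UMIs, counted in both, cannot change the ratio of a single gene. Of the 10 members with the most UMIs in the cluster, 6 lay above 0 and 4 below in the whole cluster, with 4 intervals above 0 and 0 below. In the nuclei with few neuronal transcripts 9 lay below 0, 8 of them with their interval, and 1, Dnah11, above. Over all genes 5.67% had intervals below 0 there, but high counts narrow the intervals, so that this is no like background. Dnah12 had a log2 ratio of -0.07 in the whole cluster and -0.38 (-0.49 to -0.27) in these nuclei, at 2276 CPM in HFD and 2961 CPM in NFD. Cfap61 had -0.15 and -0.48 (-0.65 to -0.31), and Tmem212 had 0.13 and -0.23 (-0.36 to -0.09). Dnah11 had 0.49 in the whole cluster and 0.14 (-0.02 to 0.30) in these nuclei, at 1387 CPM in HFD and 1258 CPM in NFD.

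**Figure D5:**
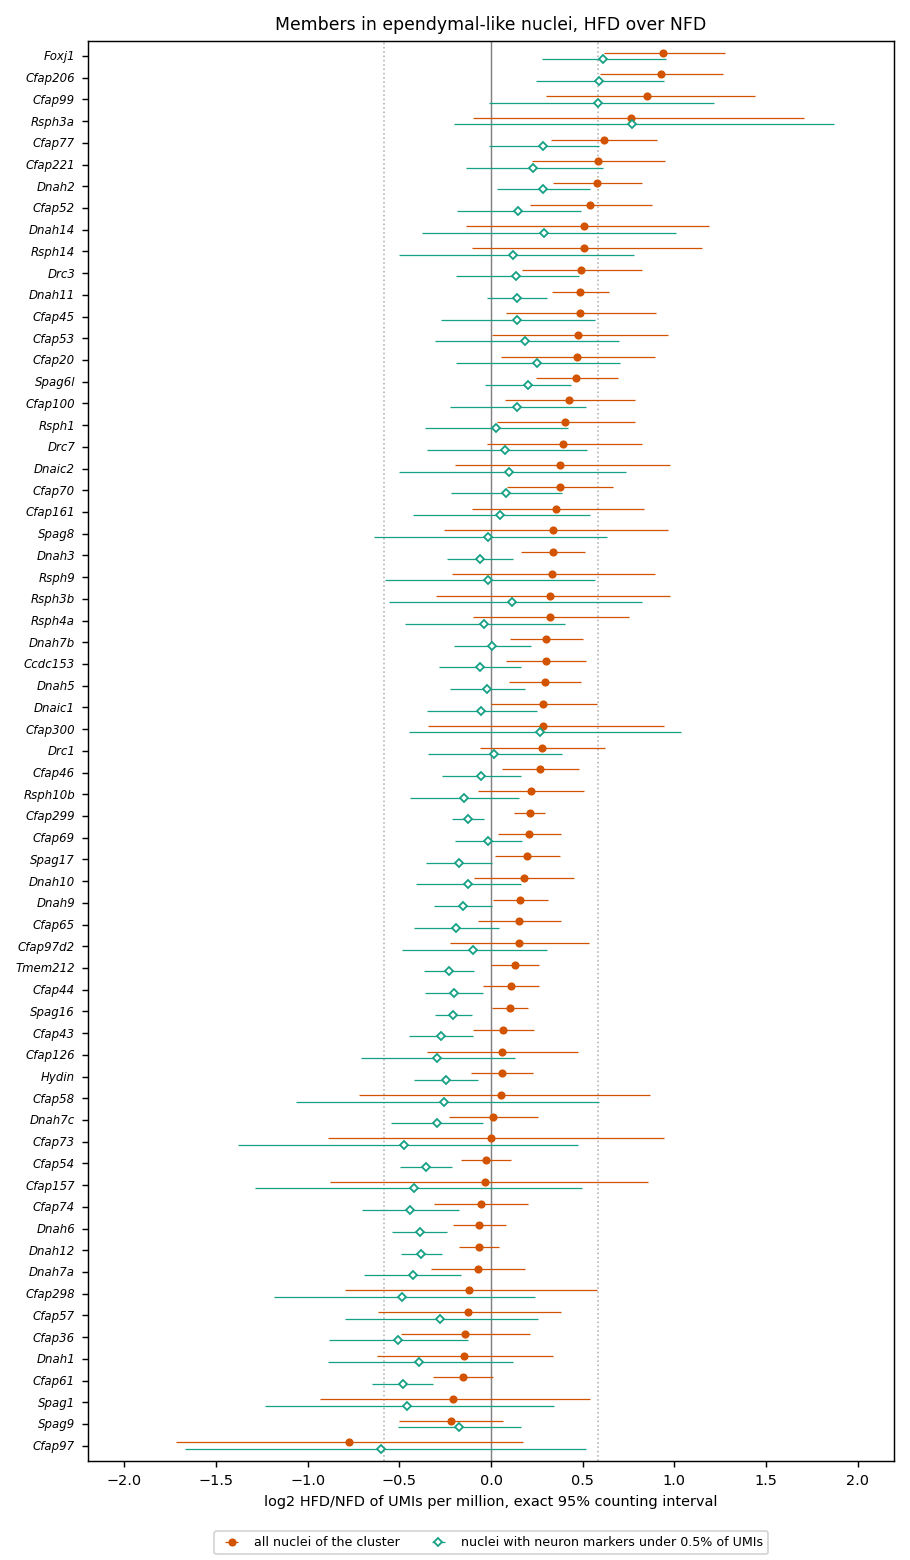
Log2 ratio of HFD to NFD CPM in ependymal-like nuclei for 65 members, with exact 95% counting intervals, in all nuclei of the cluster (filled circles) and in nuclei with neuron markers under 0.5% of UMIs (open diamonds); dotted lines mark 1.5-fold. Above 0 lie 50 circles and 26 diamonds, and Foxj1 and Cfap206 have intervals above 0 in both sets.

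By role, in the whole cluster 13 of 15 genes of the doublet wall, 8 of 9 of the radial spokes, 10 of 13 of the central apparatus, 6 of 10 inner arm heavy chains, 3 of 3 outer arm heavy chains, 3 of 3 of the nexin-dynein regulatory complex, 1 of 3 assembly factors and 3 of 6 of other or unclear place lay above 0, as did 57.9% of all genes. In the nuclei with few neuronal transcripts these counts were 7 of 15, 5 of 9, 4 of 13, 3 of 10, 1 of 3, 3 of 3, 1 of 3 and 0 of 6. The share of all genes above 0 was not computed there, and the median log2 ratio over all genes was 0.05. Both outer arm intermediate chains lay above 0 in the whole cluster, and 1 of them in those nuclei.

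In neurons the member sum was lower in HFD, with a log2 ratio of -0.10 and a median over 70 members of -0.19, beside -0.05 over all genes. Above 0 lay 18 members (25.7%, against 41.1% of all genes) and below 52, and intervals lay below 0 for 26 (37.1%, background 22.4%). Dnah11 was the only member beyond 1.5-fold (1.43%, background 0.479%), with a log2 ratio of 1.10 (0.82 to 1.39) at 7.88 CPM in HFD and 3.67 CPM in NFD neurons. Without the granule neuron-like and the Kit and Tfap2b clusters, which came almost wholly from HFD, its ratio was 0.41 (0.10 to 0.72). Of the 162 HFD UMIs of Dnah11 in the other-neuron class, 21 lay in 1 nucleus, against at most 3 in an NFD nucleus. The ratio without that nucleus was not computed. Over all nuclei of the libraries the member sum was higher in HFD, with a log2 ratio of 0.10, while ependymal-like nuclei made up 2.88% of HFD and 1.83% of NFD nuclei. With only nuclei under 5% mitochondrial UMIs, a sign of RNA quality, the sum turned to -0.013 and these shares were 1.28% and 1.12%. Over all kept nuclei, without that stricter limit, Foxj1 and Dnah11 were the 2 members beyond 1.5-fold (2.82%, background 0.543%). Their log2 ratios were 1.33 (1.04 to 1.62) and 0.97 (0.83 to 1.10). In such a sum the number of ciliated nuclei and the RNA in each cannot be told apart.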

How the data were processed

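Nuclei of vlPAG tissue were captured with a 10x 3' kit, and the deposited files hold raw counts, that is UMIs per gene and barcode, which the authors made with Cell Ranger on GRCm38 (the file header names version 4.0.0) and did not normalize. Barcodes with more than 500 UMIs and under 20% mitochondrial UMIs were kept. Nuclei were clustered with Seurat 5.3.0 on 1923 of 2000 variable genes, leaving out members and pathway genes (20 components, resolution 0.5), and clusters were named from marker lists, so that classes are rebuilt and may differ from those of the study. Counts were summed per class and library and divided by all UMIs of the class (CPM). Ratios carry exact binomial and levels exact Poisson intervals at 95%, and shares of nuclei have Clopper-Pearson intervals. A ratio was called when its interval lay beyond 4-fold (ependymal-like comparisons) or 1.5-fold (others), over genes with 50 UMIs, or 20 for diets. No p-value was computed, as each diet has 1 library. The interval script was tested on simulated data. Scrublet (scanpy 1.11.5) called 0 HFD and 1 NFD doublets and was judged not to have worked, so doublets stayed in, and the 421 HFD and 515 NFD nuclei of highest score were left out in an alternative. Named genes were Foxj1, Hydin, Tmem212, Ccdc153, the 10 members with most UMIs in ependymal-like nuclei, those near neuronal levels, those called between diets or in Kit and Tfap2b neurons, and the leading member of each role. Others named were chosen after their values were seen. Members and lists were chosen with earlier results of these data known.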

Additional observations from a re-analysis of the deposited data

Results flagged for a closer look

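The summed members moved in opposite directions between the diets in 2 kinds of nuclei, with a log2 ratio of HFD to NFD of 0.18 in ependymal-like nuclei and -0.10 in neurons. The difference between these values was not tested, since each diet has 1 library. The sign in ependymal-like nuclei turned under several of the alternatives given next.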

How the results depend on the processing

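No paired analysis was possible because each diet has 1 library. The count of members beyond 4-fold over neurons stayed between 54 and 57 over 10 alternatives, and Dnah11, by name, was the 1 call in Kit and Tfap2b neurons in each of 8. The settings with low neuron markers, and those relative to ependymal markers, were chosen after seeing the data. The ependymal-like diet sum (0.18) was 0.017 with 30 components, 0.061 with nuclei weighted equally, 0.064 above 1000 UMIs, 0.36 thinned to 2000 UMIs and 0.40 under 5% mitochondrial UMIs. It turned to -0.068 with all variable genes kept, -0.071 relative to ependymal markers, -0.14 without high doublet scores, and, in nuclei with few neuronal transcripts, to -0.14, -0.21 weighted equally and -0.046 relative to ependymal markers. The 2 members called between diets, Foxj1 and Cfap206, became 3 under 5% mitochondrial UMIs (with Cfap77), 1 when thinned (Spag6l in place of both) and 0 with 30 components, all variable genes, more than 1000 UMIs, few neuronal transcripts (also relative to ependymal markers), relative values or no high doublet scores. The sum over all nuclei (0.10) was 0.17 for the 56 enriched members, 0.18 weighted equally, 0.43 thinned, 0.12 without high doublet scores and -0.013 under 5% mitochondrial UMIs. The neuronal sum was -0.21 for the enriched members and ran from -0.21 to -0.09. The share of ependymal-like nuclei was 1.28% in HFD and 1.12% in NFD under 5% mitochondrial UMIs, and 1.41%, 1.24% and 1.49% in NFD with all variable genes, thinning and no high doublet scores. Their percentage of member UMIs was 51.2 in HFD and 35.8 in NFD for enriched members, 31.9 and 21.0 with all variable genes, 45.5 and 31.3 weighted equally, 31.8 and 20.4 with few neuronal transcripts (44.5 and 29.95 weighted equally), 19.5 and 14.1 under 5% mitochondrial UMIs, 45.5 and 20.4 thinned, 21.6 in NFD above 1000 UMIs and 34.6 in HFD without high doublet scores. The cause was not tested. Ratios against a class at 0 have no value and are left out. Of 1586 other values 1234 moved by less than their counting interval and 352 by more. Depth limits calls for members with few UMIs, such as Spag6, Dnah8 and Dnah17.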
